A study of Ictidomys tridecemlineatus with 10 samples.

Results

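The genes that encode the subunits of respiratory complexes II, III, IV and V were followed in the subfornical organ, by RNA sequencing, in a hibernating rodent, the thirteen-lined ground squirrel (Ictidomys tridecemlineatus). Members were chosen by name: Sdha to Sdhd, Cyc1, Cycs, and every symbol that starts with Uqcr, Cox4, Cox5, Cox6, Cox7, Cox8 or Atp5 under an old or a new name. The deposited table held 44 such genes among 25964, and 42 of the 44 averaged 1 CPM or more across all libraries, as did 15445 genes in all, which were tested. By complex, the 44 genes were 4 of complex II, 8 of complex III, 14 of complex IV and 18 of complex V, and the 2 under the limit were both of complex IV. The comparison set 5 libraries of squirrels in interbout arousal (IBA) against 5 libraries of Active squirrels. IBA animals were hibernators that had rewarmed for one of the short spells that separate bouts of torpor, and Active animals were not hibernating. The subfornical organ, which lies in the midline of the brain, lacks a blood-brain barrier and monitors the osmolality and angiotensin of the blood, was cut out by hand from slices. The labels give no genotype, agent, age or sex, and the design text describes the 5 libraries of a state as biological replicates.

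Complex II oxidises succinate and hands the electrons to ubiquinone, complex III carries them from ubiquinol to cytochrome c, and complex IV passes them from cytochrome c to oxygen. Complexes III and IV pump protons out of the mitochondrial matrix, and complex V, the ATP synthase, lets them back in and makes ATP. Complex II is encoded by nuclear genes alone, whereas complexes III, IV and V also hold subunits encoded in mitochondrial DNA. In the liver of this species, mitochondrial respiration is known to be low in torpor and to recover during interbout arousal.

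Part of the pathway was listed without symbols. The table gave 22 of the 44 members by symbol, all of complexes II and V, and the other 22 only as LOC followed by an NCBI gene ID. These 22, which made up all of complexes III and IV, were named by matching that ID to a RefSeq gene list. The list's assembly was mIctTri1.hap1. For complex V the older symbols of the table are kept here, such as Atp5a1 for Atp5f1a, Atpif1 for Atp5if1 and Usmg5 for Atp5mk. Of the 50 subunit and isoform genes looked for, 7 matched no row and were not analysed here, namely Uqcrh, Cycs, Cox6b1, Cox6b2, Cox8b, Cox8c and Atp5mj. Only 578 of the 9890 rows listed as LOC and a gene ID were paired with a symbol. The genes that matched no row may thus be in the table without a name. Atp5s, the coupling factor B gene, was kept because its symbol meets the rule, although it was not among the genes looked for. None of the transcripts of mitochondrial DNA was found under the names searched, so every value below is of a nuclear gene.

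Sequencing depth, recovered from the normalised CPM, was 24195342 to 35382203 reads per IBA library and 20993093 to 30713168 per Active library. Single libraries stood apart. A score, in which each member's log2 value was centred on its average in the 10 libraries and the 42 centred values were averaged, lay between -0.07 and 0.35 in IBA libraries. In Active libraries it lay between -0.21 and -0.02 in replicates 1 to 3, at 0.26 in replicate 4 and at -0.41 in replicate 5. Active replicate 4 was the highest Active library for 32 of the 42 members, against 18.6% of all genes tested. Active replicate 5 was the lowest of all 10 libraries for 29 of the 42, against 19.5% of all genes. IBA replicate 2 was the highest IBA library for 34 of the 42, against 19.1% of all genes. The summed CPM of 9 choroid plexus markers was 481 to 3045 in IBA libraries, 13544 in Active replicate 4 and 570 to 2145 in the other Active libraries, with no marker at 0. The score of 76 cytosolic ribosomal protein genes was lowest, at -0.87, in Active replicate 5. RNA integrity was given only as a range for the series, 6.8 to 9.1. The part of choroid plexus, ribosomal protein genes and RNA integrity in the results was not tested, and the main results are given with and without the libraries named. All 10 neuron, 8 astrocyte, 9 oligodendrocyte and 9 microglia markers searched were above 0 in every library.

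No member passed the test between IBA and Active. The test was limma's, on log2(CPM + 0.5), with Benjamini-Hochberg adjustment over 15445 genes and a threshold of 0.05. It called 62 genes in all, which is 0.401% of those tested. What the members had in common was a small difference in 1 direction: 37 of the 42 had a higher mean log2 value in IBA, against 54.1% of all genes tested. The median difference of the members was 0.26 on the log2 scale, the lower and upper quartiles were 0.16 and 0.38, and the median of all genes tested was 0.03. At an unadjusted p under 0.05, 13 members were higher in IBA and 1 was lower, whereas 12.7% of all genes were higher and 11.1% lower by that measure. In both directions together that was 33.3% of the members and 23.9% of all genes, but 19% of the members and 24% of all genes in edgeR on the recovered reads. Here as in every value below, fewer cells of a type and less RNA per cell cannot be told apart. Summed over the 42 members, the level was 9315 to 12044 CPM in IBA libraries and 6981 to 11503 CPM in Active libraries, so the states overlapped. The highest Active sum was that of replicate 4 and the lowest that of replicate 5.

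**Figure D1:**
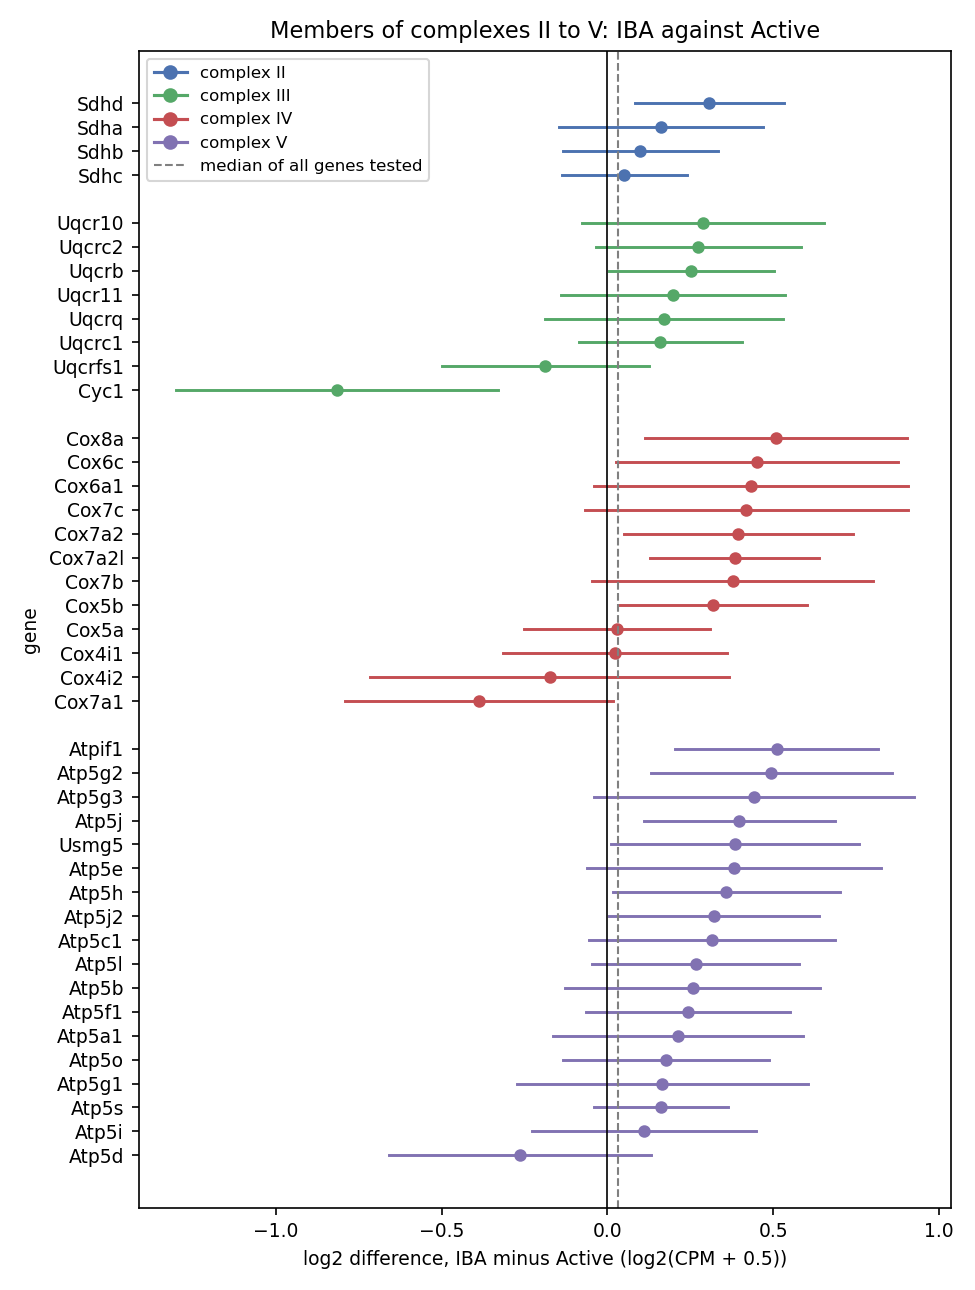
Log2 difference of each of the 42 members tested, IBA minus Active, on the log2(CPM + 0.5) scale, with points for the estimate, bars for limma's 95% confidence interval and colours for the complex. The points run from -0.82 for Cyc1 to 0.51 for Atpif1, 37 of them lie above 0, and the dashed line marks the median of all genes tested, 0.03.

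The complexes differed in how far their members stood above 0. The median log2 difference was 0.38 over 12 members of complex IV, 0.29 over 18 of complex V, 0.18 over 8 of complex III and 0.13 over 4 of complex II. Members with a higher mean in IBA were 10 of 12 in complex IV, 17 of 18 in complex V, 6 of 8 in complex III and 4 of 4 in complex II. The order of the 4 medians was the same under 22 of 22 alternative analyses. Those that changed only the filter, the variance model or the block could not move a median, so they add nothing to that count. The order is one of medians over few genes with overlapping values, and the difference between complexes was not tested. As scores per library, complex IV ran from -0.08 to 0.37 in IBA and from -0.47 to 0.29 in Active. Complex V ran from -0.05 to 0.42 in IBA and from -0.52 to 0.24 in Active. Complex III ran from -0.18 to 0.27 in IBA and from -0.20 to 0.33 in Active, and complex II from -0.01 to 0.20 in IBA and from -0.22 to 0.14 in Active. In each complex the states overlapped, and the highest Active library was replicate 4. The mean score of IBA minus that of Active was 0.27 for complex V, 0.23 for complex IV, 0.15 for complex II and 0.04 for complex III. By this measure the order of the complexes was thus not that of the medians.

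**Figure D2:**
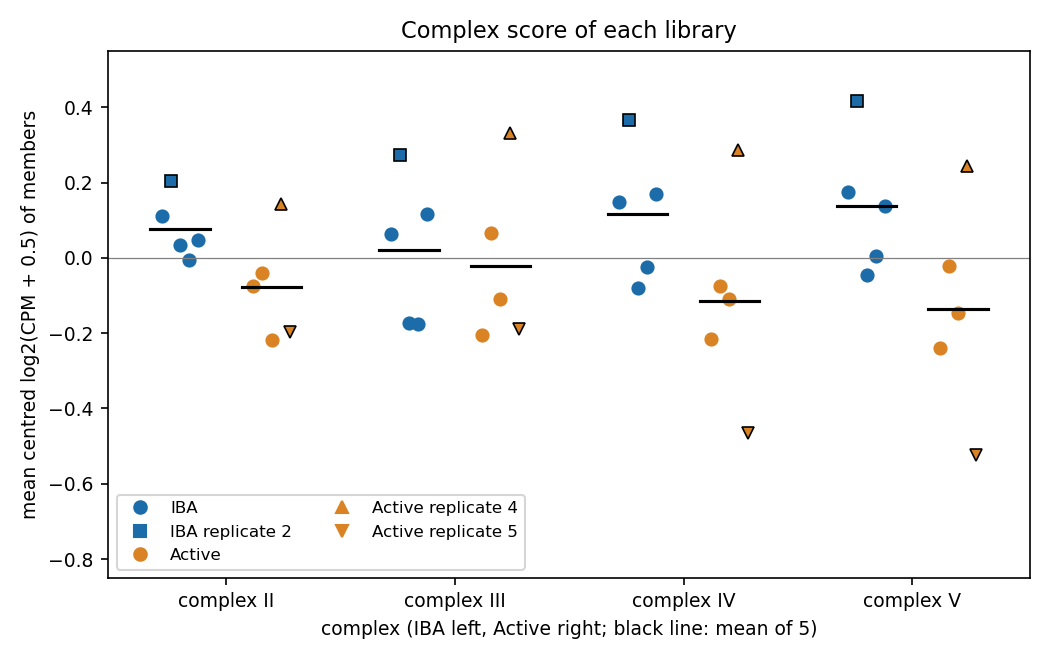
Score of each library for complexes II to V, the average of its members' centred log2(CPM + 0.5) values, with IBA left of Active, 1 point per library and a black line for the mean of 5. Active replicate 4 is the highest Active point in every complex, at 0.33 in complex III and 0.29 in complex IV, and Active replicate 5 is the lowest in complexes IV and V, at -0.47 and -0.52.

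Single libraries moved these medians. Without Active replicate 4 they were 0.22 for complex II, 0.29 for complex III, 0.44 for complex IV and 0.40 for complex V. Without Active replicate 5 they were 0.10, 0.12, 0.23 and 0.18 in the same order. Leaving out both brought them to 0.19, 0.20, 0.35 and 0.27, close to the values with all libraries for complexes III, IV and V. The median of complex II was 0.06 without Active replicate 3, and that of complex III was 0.11 without IBA replicate 2. Each median stayed above 0 whichever library was left out. The number of members at an unadjusted p under 0.05, 14 with all libraries, was 27 (64.3%, against 22.4% of all genes) when Active replicate 4 was left out. It was 20 (47.6%, against 14.2% of all genes) when Active replicates 4 and 5 were left out together. It was 7 (16.7%) without IBA replicate 1, IBA replicate 2 or Active replicate 5, where 18.6%, 18.7% and 17.9% of all genes passed. It was 8 (19%, against 23.3% of all genes) without IBA replicate 5 and 9 (21.4%, against 22.2%) without Active replicate 1. With any of these last 5 libraries left out, the members' share was thus below that of all genes.

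**Figure D3:**
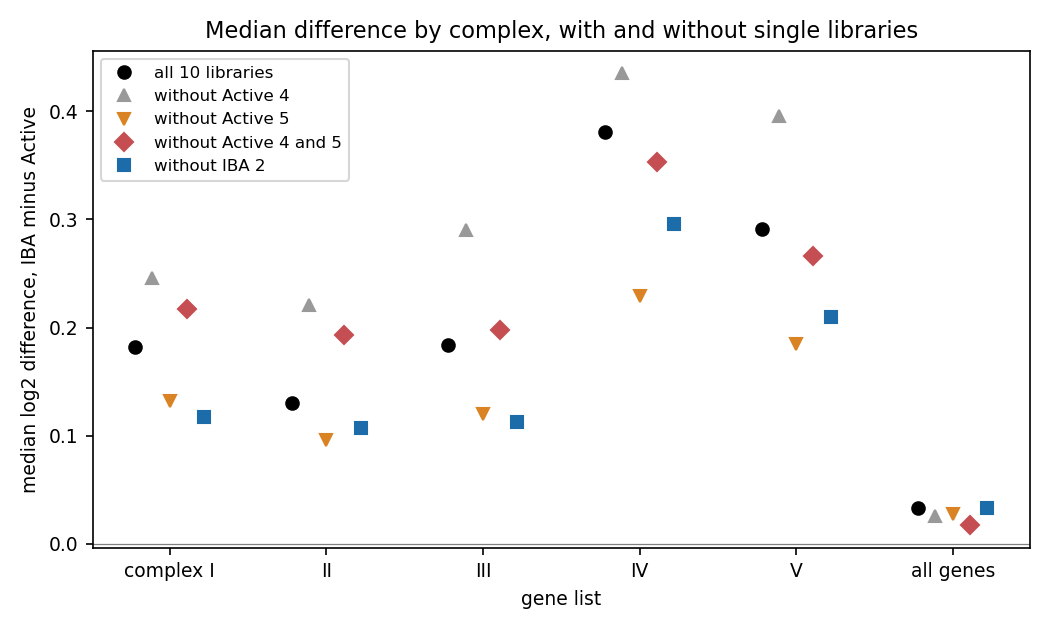
Median log2 difference, IBA minus Active, of the genes of complexes I to V and of all genes tested, with all 10 libraries and without the libraries named in the legend. Complex IV has the highest median under each, from 0.23 without Active replicate 5 to 0.44 without Active replicate 4, and the median of all genes stays near 0.

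Complex II is the succinate dehydrogenase, and all of its genes were measured. Sdhd, which encodes one of the membrane anchors, had the largest difference. It had 314, 357, 276, 318 and 291 CPM in IBA replicates 1 to 5, against 251, 280, 264, 253 and 210 CPM in Active replicates 1 to 5. Only Active replicate 2 exceeded the lowest IBA library. The log2 difference was 0.31 (SE 0.10, limma's adjusted p = 0.114). Sdha, the flavoprotein that binds succinate, had 991, 966, 917, 856 and 921 CPM in IBA, against 906, 852, 618, 1099 and 754 CPM in Active. The Active libraries spanned the whole IBA range, with replicate 4 above every IBA library and replicate 3 the lowest. The difference of Sdha was 0.16 (adjusted p = 0.511), 0.26 without Active replicate 4 and 0.055 without Active replicate 3. Sdhb, the iron-sulfur subunit, averaged 200 ± 15.5 CPM in IBA and 188 ± 27.1 CPM in Active (SD, n = 5 each), a log2 difference of 0.10 with limma's adjusted p = 0.601 (0.18 without Active replicate 4 and 0.06 without Active replicate 5). Sdhc, the other anchor, averaged 382 ± 20.5 CPM in IBA and 369 ± 26.1 CPM in Active. Its log2 difference was 0.05, with a 95% interval of -0.14 to 0.24, and it turned to -0.01 when every library was scaled to the same total.

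Complex III held the one member that stood clearly below the rest. Cyc1 (LOC101954680) encodes cytochrome c1, the haem protein that hands electrons to cytochrome c. It had 31.3, 37.8, 28.0, 28.0 and 48.1 CPM in IBA replicates 1 to 5, against 41.3, 58.0, 47.5, 69.3 and 98.4 CPM in Active replicates 1 to 5. The states overlapped only through IBA replicate 5, which lay above Active replicates 1 and 3, and the highest library by far was Active replicate 5. The mean was 34.6 ± 8.51 CPM in IBA and 62.9 ± 22.5 CPM in Active, a ratio of 0.550. The log2 difference was -0.82 (SE 0.22, 95% interval -1.30 to -0.33), with an unadjusted p of 0.00322 and limma's adjusted p = 0.0795. It did not pass the threshold in edgeR on the recovered reads (adjusted p = 0.0762), which called no member and 0.369% of all genes. It passed in DESeq2 on the same reads (-0.89, adjusted p = 0.00902). DESeq2 called 9.89% of all genes, and its only other call among the members was Atpif1, so the members' share of DESeq2 calls was not above that of all genes. Without Active replicate 5 the difference of Cyc1 was -0.64, without Active replicate 4 it was -0.76, and without both it was -0.51.

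The other catalytic subunit with a nuclear gene is the Rieske iron-sulfur protein, encoded by Uqcrfs1. Its transcript had 138, 171, 140, 119 and 168 CPM in IBA, against 143, 177, 150, 226 and 148 CPM in Active. The ranges overlapped over most of their length, and Active replicate 4 was above all the others. Uqcrfs1 had a log2 difference of -0.19 (adjusted p = 0.449), and -0.08 without Active replicate 4. The 6 members with a higher mean in IBA were the core subunits and the small supernumerary ones, at 0.16 to 0.29. Among them Uqcrb had 176, 193, 157, 161 and 165 CPM in IBA, against 140, 152, 146, 169 and 111 CPM in Active. Here 4 of 5 Active libraries lay below every IBA library, and replicate 4 lay within the IBA range. Its log2 difference was 0.25 (SE 0.11, adjusted p = 0.204), and 0.16 without Active replicate 5. Uqcr10 averaged 195 ± 40.1 CPM in IBA and 160 ± 34.4 CPM in Active (0.29, limma's adjusted p = 0.313). Uqcrc2, which encodes a core subunit, averaged 176 ± 20.1 CPM in IBA and 147 ± 33.2 CPM in Active (0.27, limma's adjusted p = 0.259). Uqcrc1, Uqcrq and Uqcr11 had differences of 0.16, 0.17 and 0.20.

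Cyc1 was therefore set against the rest of its own complex, a ratio chosen after its values were seen. In each library the log2 value of Cyc1 minus the mean log2 value of the other 7 members of complex III was taken. It was -2.38, -2.32, -2.29, -2.29 and -1.74 in IBA replicates 1 to 5, and -1.62, -1.38, -1.50, -1.39 and -0.22 in Active replicates 1 to 5. The ranges did not overlap, and IBA replicate 5 came nearest to the Active libraries. The mean was -2.20 ± 0.26 in IBA and -1.22 ± 0.57 in Active, a difference of -0.98. Active replicate 5 was far above the other 4 Active libraries. With Cyc1 left out, the median difference of complex III was 0.20.

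**Figure D4:**
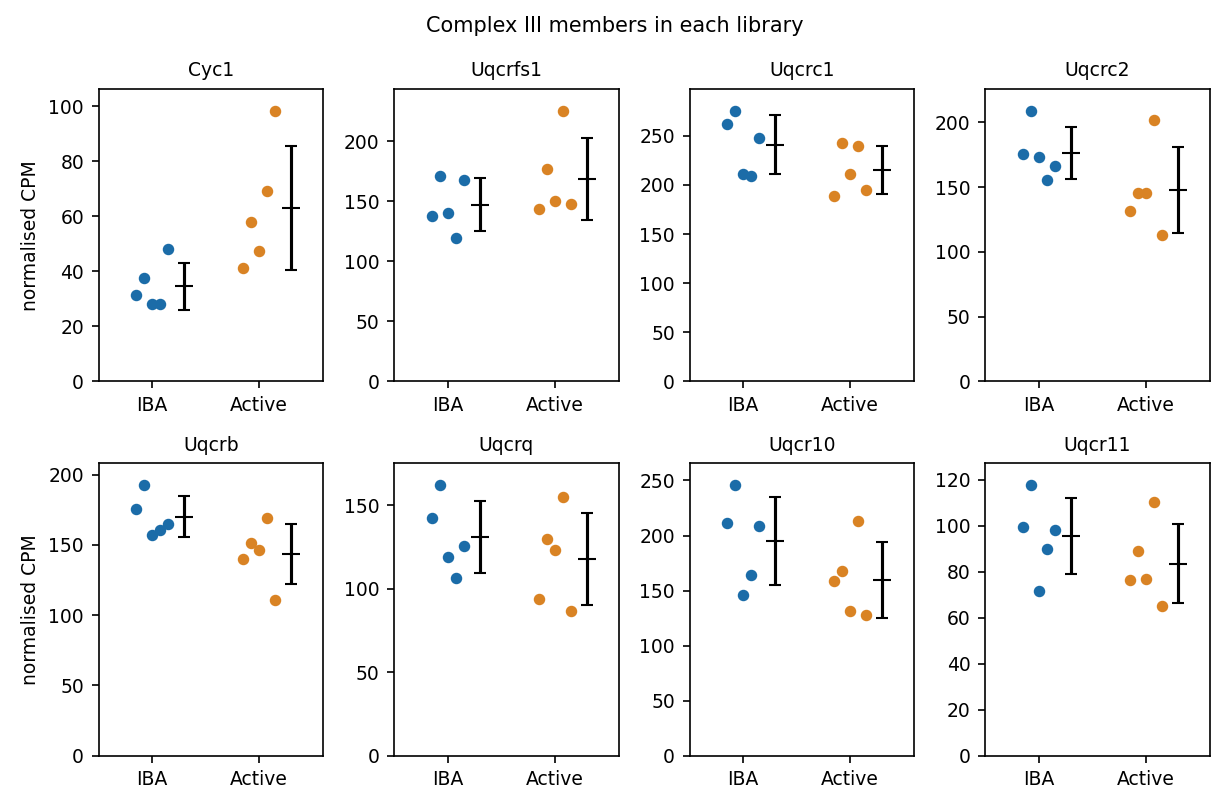
Normalised CPM of the 8 members of complex III in each library, IBA left of Active, with 1 panel per gene, points for libraries in the order of replicates 1 to 5 and bars for the mean and SD of 5. Cyc1 averages 34.6 in IBA and 62.9 in Active, whereas Uqcrb and Uqcr10 average 170 and 195 in IBA and 144 and 160 in Active.

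Complex IV is the cytochrome c oxidase, and its members' estimates ran from -0.39 to 0.51 with overlapping intervals. Cox8a, Cox6c, Cox6a1, Cox7c, Cox7a2, Cox7a2l, Cox7b and Cox5b had differences of 0.32 to 0.51, whereas Cox4i1 and Cox5a stood near 0 and Cox4i2 and Cox7a1 below it. Cox8a, whose small product spans the inner membrane, had 192, 239, 184, 165 and 192 CPM in IBA replicates 1 to 5, against 120, 155, 139, 196 and 88.6 CPM in Active replicates 1 to 5. All Active libraries but replicate 4 were below every IBA library. The difference of Cox8a was 0.51 (SE 0.18, adjusted p = 0.127), and 0.36 without Active replicate 5. Cox7a2l, which encodes a factor that links complexes III and IV in supercomplexes, was chosen after its values were seen as the member of complex IV with the lowest adjusted p. It had 361, 381, 263, 311 and 327 CPM in IBA, against 230, 274, 282, 249 and 220 CPM in Active. Only IBA replicate 3 fell among the Active libraries. Its difference was 0.38 (SE 0.12, limma's adjusted p = 0.0948), and unlike most members it hardly moved without Active replicate 4 (0.38) or 5 (0.34).

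Cox6c averaged 124 ± 23.9 CPM in IBA and 91.9 ± 25.5 CPM in Active (0.45, limma's adjusted p = 0.187), with a difference of 0.29 without Active replicate 5. Cox5b, a subunit on the matrix side, averaged 400 ± 67.5 CPM in IBA and 319 ± 42.4 CPM in Active (0.32, limma's adjusted p = 0.169). Cox5a, its neighbour in the complex, averaged 201 ± 20.6 CPM in IBA and 199 ± 36.6 CPM in Active. Its log2 difference was 0.03, with a 95% interval of -0.25 to 0.31. Cox4i1 had 653, 600, 481, 394 and 550 CPM in IBA, against 560, 529, 395, 625 and 515 CPM in Active. The ranges were almost the same, and the difference was 0.02 with a 95% interval of -0.31 to 0.36. The sign of both Cox5a and Cox4i1 turned under other scalings and models, so no direction is given for either. Cox7b and Cox7c had differences of 0.38 and 0.42, with limma's adjusted p = 0.258 and 0.273, and 0.22 and 0.24 without Active replicate 5.

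Several subunits of complex IV have a widely expressed form and a form known from heart, muscle or lung. Cox7a1, the heart and muscle form of subunit 7A, had 15.1, 16.0, 16.8, 18.9 and 15.3 CPM in IBA, against 18.4, 20.5, 17.4, 37.0 and 19.3 CPM in Active. Active replicate 4 was far above all other libraries, and the rest overlapped through IBA replicate 4. Cox7a1 had a log2 difference of -0.39 (SE 0.19, adjusted p = 0.226), and -0.20 without Active replicate 4. Cox7a2, the widely expressed form, had 170, 216, 146, 134 and 160 CPM in IBA, against 123, 137, 125, 156 and 89.0 CPM in Active (0.40, limma's adjusted p = 0.160). The log2 ratio of Cox7a1 to Cox7a2 averaged -3.28 ± 0.35 in IBA and -2.49 ± 0.35 in Active, a difference of -0.78. It ran from -3.71 to -2.79 in IBA and from -2.81 to -2.06 in Active, so the states overlapped by a single pair of libraries.

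For subunit 6A, Cox6a1 averaged 412 ± 49.7 CPM in IBA and 320 ± 109 CPM in Active (0.43, limma's adjusted p = 0.246), and its difference was 0.22 without Active replicate 5. Cox6a2, the heart and muscle form, was under the limit of 1 CPM, at 0.828 ± 0.399 CPM in IBA and 0.928 ± 0.391 CPM in Active, with p = 0.675 in a two-sided exact permutation test. Cox4i2, known from lung and linked to low oxygen, averaged 0.977 ± 0.351 CPM in IBA and 1.18 ± 0.516 CPM in Active (-0.17, limma's adjusted p = 0.707), and its difference was -0.03 without Active replicate 5. Both were above 0 in every library. The log2 ratio of Cox6a2 to Cox6a1 differed by -0.54 and that of Cox4i2 to Cox4i1 by -0.20 between IBA and Active, with overlap of the states in both. With Cox6a2 and Cox4i2 near 1 CPM, these ratios depend on the 0.5 added to the CPM. The difference of Cox4i2 itself was -0.24 with 0.1 added and -0.13 with 1 added. Cox7b2 had 1 read in 1 library, Active replicate 5, and 0 in the other 9, where a count of 0 allows up to 0.132 CPM. Cox6b1, Cox6b2, Cox8b and Cox8c matched no row by name, so the ratios for subunits 6B and 8 were not formed.

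**Figure D5:**
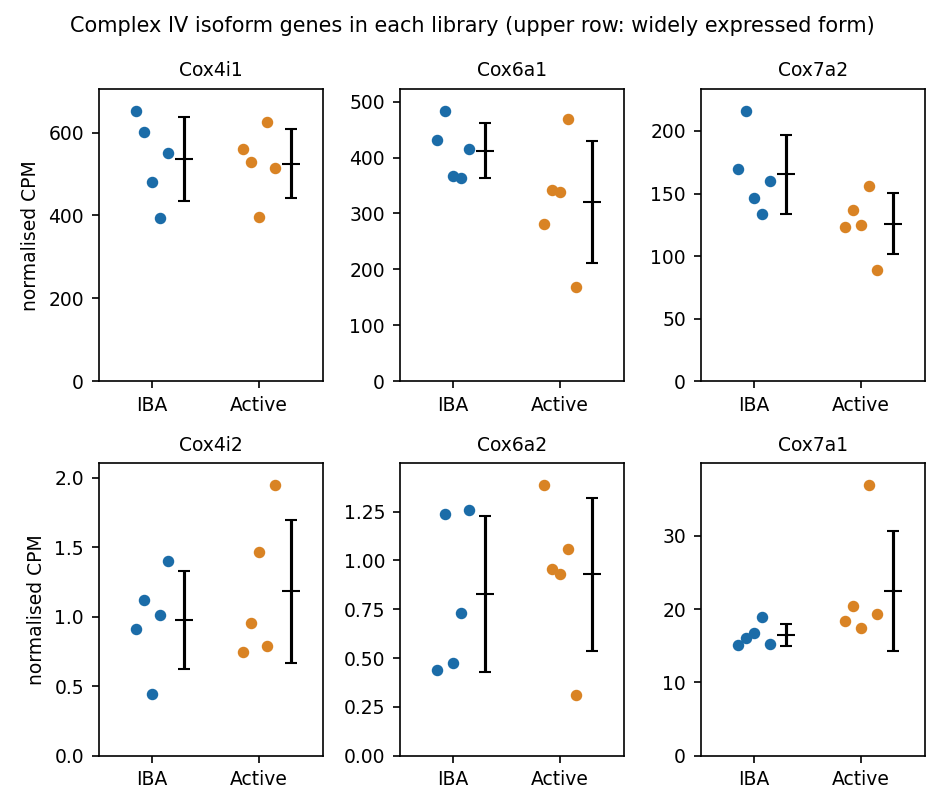
Normalised CPM of 3 isoform pairs of complex IV in each library, IBA left of Active, with the widely expressed form in the upper row and its counterpart below, points for replicates 1 to 5 and bars for the mean and SD of 5. Cox7a2 averages 165 in IBA and 126 in Active, Cox7a1 averages 16.4 in IBA and 22.5 in Active with Active replicate 4 at 37.0, and the panels have separate axes that all start at 0.

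Complex V consists of a catalytic F1 head, a ring of c subunits in the membrane, a peripheral stalk and further membrane subunits, and it has a natural inhibitor. Atpif1 encodes that inhibitor, which keeps the enzyme from running backwards and consuming ATP. It had 216, 252.4, 170, 184 and 205 CPM in IBA replicates 1 to 5, against 132, 150, 172, 161 and 109 CPM in Active replicates 1 to 5. The states overlapped only where IBA replicate 3 fell just below Active replicate 3. The mean was 205 ± 31.9 CPM in IBA and 144 ± 24.9 CPM in Active. Atpif1 had a log2 difference of 0.51 (SE 0.14, 95% interval 0.20 to 0.82), with limma's adjusted p = 0.0801, and DESeq2 gave 0.47 with an adjusted p of 0.0368. Over the 22 alternatives it ranged from 0.41 to 0.58.

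The F1 head carries the sites where ATP is made. Atp5a1 encodes its alpha subunit and averaged 1127 ± 91.9 CPM in IBA and 999 ± 269 CPM in Active (0.21, limma's adjusted p = 0.476). Atp5b encodes the catalytic beta subunit and had 704, 857, 638, 729 and 710 CPM in IBA, against 543, 682, 660, 846 and 395 CPM in Active. The Active libraries reached both above and below most of the IBA ones, with replicate 4 at the top and replicate 5 at the bottom. The difference of Atp5b was 0.26 (adjusted p = 0.397). Without Active replicate 5 the differences of Atp5a1 and Atp5b were 0.07 and 0.10, and without Active replicate 4 they were 0.34 and 0.38. Atp5d, which encodes the delta subunit of the central stalk, was the only member of complex V with a lower mean in IBA. It had 96.1, 122, 95.2, 80.2 and 114 CPM in IBA, against 95.5, 121, 92.4, 185 and 130 CPM in Active. Its difference of -0.26 (adjusted p = 0.398) was -0.11 when Active replicate 4 was left out and -0.03 when Active replicate 5 was left out as well. In the reference list Atp5d overlaps Cbarp, whose own difference was -0.84 (limma's adjusted p = 0.128), and reads of the pair may be shared. Atp5c1 and Atp5e, the gamma and epsilon subunits, had 0.32 and 0.38.

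The c ring is built from identical subunits that 3 genes encode as one mature protein. Whether reads were shared between these genes was not tested, so each value is uncertain. Atp5g2 had 75.1, 87.9, 54.1, 72.3 and 71.9 CPM in IBA, against 53.8, 57.7, 58.1, 54.8 and 33.3 CPM in Active. IBA replicate 3 lay among the Active libraries and the other IBA libraries lay above them all. The log2 difference was 0.50 (SE 0.17, adjusted p = 0.114). Atp5g3 averaged 217 ± 31.7 CPM in IBA and 168 ± 64.4 CPM in Active (0.44, limma's adjusted p = 0.246), and Atp5g1 averaged 229 ± 39.5 CPM in IBA and 211 ± 78.1 CPM in Active (0.17, limma's adjusted p = 0.651). Atp5g3 had 0.25 without Active replicate 5, and Atp5g1 had 0.36 without Active replicate 4 and 0.06 without Active replicate 3. Between IBA and Active the log2 ratio of Atp5g1 to Atp5g3 differed by -0.28 and that of Atp5g2 to Atp5g3 by 0.05, with overlap in both.

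Atp5j, a peripheral stalk gene, was the only member of any complex whose states did not overlap, and it is described for that reason, chosen after its values were seen. It had 299, 329, 249, 263 and 273 CPM in IBA, against 223, 239, 226, 239 and 154 CPM in Active. Every IBA library lay above every Active one. Of all genes tested, 3.59% were higher in IBA with no overlap and 2.8% were lower, so 1 of 42 members is not above that background. The log2 difference was 0.40 (SE 0.13, limma's adjusted p = 0.111). By group, the median difference was 0.44 for the 3 c ring genes, 0.30 for the 4 peripheral stalk genes, 0.29 for the 4 further membrane subunits and 0.26 for the 5 genes of F1. Without Active replicate 5 these medians were 0.25, 0.21, 0.20 and 0.10 in the same order. Without Active replicate 4 they were 0.52, 0.36, 0.40 and 0.38, so the groups below the c ring changed places. The difference between these small groups was not tested. The members not yet named, Atp5i, Atp5s, Atp5o, Atp5f1, Atp5l, Atp5j2, Atp5h and Usmg5, ran from 0.11 for Atp5i to 0.39 for Usmg5, with limma's adjusted p of 0.194 or more.

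The authors' deposited table, with its sign turned to IBA minus Active, gave no member an FDR under 0.05, and the lowest was 0.172 for Atp5g2, with 0.229 for Cyc1. Whether the authors' fit held only the libraries used here is not known, so these values may not rest on the same samples. The genes of some members overlap others in the reference list. This held for 20 of the 44, and whether the counting used strand is not given in the sources used here. Sdhd overlaps Timm8b, whose log2 difference was -0.01, and Atp5j overlaps Gabpa, whose log2 difference was 0.03. Atp5a1 overlaps Haus1 (0.62, limma's adjusted p = 0.0644). Other partners differed in the same direction as the member, such as Wdr77 with Atp5f1 (0.41), LOC101976897 with Uqcrc2 (0.36) and Macrod1 with Cox8a (0.24). Taf5, which overlaps Usmg5, differed in the opposite direction (-0.54). Whether reads were shared within these pairs was not tested.

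Complex I, the NADH dehydrogenase that feeds electrons into the same ubiquinone pool, gave 33 of 36 genes with a higher mean in IBA, and a median of 0.18, which was 0.12 without IBA replicate 2. At an unadjusted p under 0.05 in limma 8 of the 36 were higher and 0 lower. The calls were 0 in limma and edgeR and 1 in DESeq2, Ndufs4. For this and the lists below, the shares of all genes at that p were 12.7% higher and 11.1% lower, or 23.9% together. DESeq2 called 9.89% of all genes. For complex I, neither the count in both directions together nor that of DESeq2 was above these shares. The score of complex I ran from -0.11 to 0.33 in IBA and from -0.29 to 0.15 in Active. Ndufs4, an accessory subunit, averaged 66.2 ± 9.84 CPM in IBA and 44.5 ± 9.23 CPM in Active (0.58, limma's adjusted p = 0.0767). Of the 13 genes of the tricarboxylic acid cycle, 12 had a higher mean in IBA with a median of 0.14, and limma, edgeR and DESeq2 each called 0, with 1 at an unadjusted p under 0.05 in limma. The assembly factors of complexes II to V gave 27 of 38 and a median of 0.08. Here limma and edgeR called 0, DESeq2 called 1, and 6 were higher and 2 lower at an unadjusted p under 0.05 in limma. Among them Higd1a, a hypoxia-induced protein linked to complexes III and IV, averaged 230 CPM in IBA and 170 CPM in Active (0.44, limma's adjusted p = 0.0670, DESeq2's 0.0105). Lrpprc, which stabilises mitochondrial messenger RNAs, averaged 120 CPM in IBA and 87.9 CPM in Active (0.47, limma's adjusted p = 0.0824). Carriers and channels of the mitochondrial membranes gave 8 of 10 and a median of 0.12, with 0 calls in limma, edgeR and DESeq2, and 1 higher and 1 lower at an unadjusted p under 0.05 in limma.

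The regulators of mitochondrial biogenesis were split, with 9 of 17 higher in IBA and a median of 0.03 that changed sign without IBA replicate 1, 3 or 4. By limma and edgeR 0 were called and by DESeq2 3, and 1 was higher and 2 lower at an unadjusted p under 0.05 in limma. Polrmt, the mitochondrial RNA polymerase, averaged 37.2 CPM in IBA and 60.5 CPM in Active (-0.66, limma's adjusted p = 0.0739, DESeq2's 0.00445). Ppargc1b, a coactivator of mitochondrial genes, averaged 4.85 CPM in IBA and 9.41 CPM in Active (-0.88, limma's adjusted p = 0.0745, DESeq2's 0.00592). Mitochondrial ribosomal protein genes gave 54 of 77 and a median of 0.14, with 21 higher and 6 lower at an unadjusted p under 0.05 in limma. Both limma and edgeR called 0 of them and DESeq2 called 4, and Mrpl9 had the lowest adjusted p among them (-0.91, limma's adjusted p = 0.0576, DESeq2's 0.000633). Cytosolic ribosomal protein genes had a larger median, 0.57, with 76 of 76 higher in IBA and 67 at an unadjusted p under 0.05 in limma. None was called by limma or edgeR, whereas DESeq2 called 25, and the median was 0.41 without Active replicate 5. Their score ran from -0.18 to 0.64 in IBA and from -0.87 to -0.03 in Active.

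Cell type marker lists had medians on both sides of 0. The median difference was 0.14 over 10 neuron markers, -0.03 over 8 astrocyte markers, 0.24 over 9 oligodendrocyte markers and 0.24 over 7 microglia markers. In limma and in edgeR P2ry12 of microglia was the only call among the markers, at 39.0 CPM in IBA and 20.5 CPM in Active (0.89, limma's adjusted p = 0.0347). No microglia marker passed in limma without IBA replicate 1, 2 or 4, or without Active replicate 1, 2 or 5. Nor did any pass when the filter on low values was dropped. The microglia list was mixed, with 4 of the 7 markers higher in IBA and 3 lower. DESeq2 also called Aldh1l1 of astrocytes, Syt1 of neurons and others, with 2 calls among microglia markers, 2 among pericyte and smooth muscle markers and 1 among ependyma markers. The medians were -0.08 for endothelium, -0.21 for pericytes and smooth muscle, -0.22 for choroid plexus, -0.03 for ependyma and -0.31 for fibroblasts. Without Active replicate 4 the choroid plexus median turned to 0.20, with 7 of 9 markers higher in IBA. The oligodendrocyte median was -0.01 without Active replicate 5, 0.02 without IBA replicate 4 and 0.53 without IBA replicate 1. The neuron median was 0.32 without IBA replicate 4 and 0.07 without Active replicate 4, and no direction is given for astrocytes, endothelium or ependyma, whose medians changed sign when single libraries were left out. The oligodendrocyte score ran from -1.55 to 1.20 in IBA and from -1.37 to 0.67 in Active. The part of cell makeup in the members' differences was not tested.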

How the data were processed

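RNA-seq libraries of the subfornical organ numbered 10, 5 per state, grouped by their titles. The tools named, per the submitters' processing notes, are STAR 2.7.7a, Trimmomatic 0.39, Subread 2.0.1 with featureCounts, R 4.2.1 and edgeR 3.38.4. Genome build, annotation and strand setting are not given in the sources used here. Per library, normalised CPM was deposited by the authors (per the file headers), a signal scaled so that column sums differed, from 918752 to 1040002. Also deposited by the authors were, per gene, a log2 fold change coded Active minus IBA, an average log2 CPM, an F statistic, which is a score, and a p-value with its FDR.

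All CPM values (100%) were whole multiples of 1 read, within 0.01 of a read, and counts of reads were recovered from them. A count of 0 allows 3 reads, or 0.0882 to 0.132 CPM, which covers counting error only. The two-sided test was limma 3.58.1 (R 4.3.3) on log2(CPM + 0.5), without covariates and with an intensity trend, for the 15445 genes that averaged 1 CPM or more. This scale understates changes of genes with low values. Members under that limit had an exact permutation test over every assignment of the libraries to the states, whose smallest possible p is 0.00794. edgeR 4.0.16 and DESeq2 1.42.0 on the recovered reads were alternatives. The scripts were tested on simulated data, which held no shifts of whole libraries. Changes as small as those of most members were not simulated, so that test does not cover them. p-values measure the spread between these libraries. Levels are not compared between genes, since lengths were not used.

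Rows listed as LOC and a gene ID, 9890 in all, were matched to the RefSeq list by that ID, and 578 were paired with a symbol. Scaling, pseudocount, filter, weights, variance and count models and the block were varied, and libraries left out; a reading with members listed by symbol only was added after seeing the data. Members, lists and tests were chosen with earlier results of these data known. The members described are all 4 Sdh genes, Cyc1, isoform pairs, catalytic subunits, the inhibitor and the 3 largest differences in each direction within complexes III to V. From other lists, at most the 2 genes with the lowest p are named.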

Additional observations from a re-analysis of the deposited data

Results flagged for a closer look

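In 8 of 78 groups of 5 libraries examined, 1 library lay far from the other 4 of its state. About 1 in 20 independent groups does so by chance. The groups here share libraries and genes, so that share is no yardstick for the 8. A single read in 1 of 5 libraries, as for Cox7b2, is flagged in any case. Active replicate 4 was the highest Active library for Cox7a1, at 37.0 CPM against 17.4 to 20.5 CPM in the others, and for Atp5g1, at 348 CPM against 152 to 199 CPM. In the same library the log2 ratio of Atp5g2 to Atp5g3 was -2.28, against -1.60 to -1.37 in the other Active libraries. Active replicate 5 was the lowest for Atp5g2, at 33.3 CPM against 53.8 to 58.1 CPM, and the only one with Cox7b2 above 0, at 0.0309 CPM, which is 1 read. Its log2 ratio of Cyc1 to the other members of complex III was -0.22, against -1.62 to -1.38 in the other Active libraries. IBA replicate 5 was the highest IBA library for that ratio, at -1.74 against -2.38 to -2.29. IBA replicate 2 was the highest for Atp5g3, at 273 CPM against 199 to 212 CPM.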

How the results depend on the processing

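With the replicate number as a block, 1 member passed the threshold, Cyc1 (-0.82, limma's adjusted p = 0.0447), while that fit called 1.5% of all genes. The labels do not say that the numbers pair the samples. Same-numbered libraries had correlations of their deviations from -0.17 to 0.20, and 2 of 5 IBA libraries matched their own number best. So few libraries cannot settle whether the numbers pair anything. DESeq2 passed 2 members, Cyc1 and Atpif1, while calling 9.89% of all genes, and edgeR 0, with 8 (19%, against 24% of all genes) at an unadjusted p under 0.05. With members listed by symbol only, 21 of 22 had a higher mean in IBA. Scaling every library to the same total gave -0.0076 for Sdhc, -0.036 for Cox4i1 and -0.029 for Cox5a. edgeR gave -0.0062 for Cox4i1 and -0.019 for Cox5a, and DESeq2 -0.0039 and -0.016. Leaving out 1 library gave -0.076 to 0.13 for Cox4i1 and -0.052 to 0.12 for Cox5a. The other 23 of 26 named members tested kept their direction in all 22 alternatives, of which those that changed only the filter, the variance model or the block could not turn it. The medians ranged from 0.18 to 0.37 over all members, with 34 to 37 of 42 higher in IBA, and the cause of these shifts was not tested.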
